A study of Mus musculus with 12 samples.

Results

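In all, 10 genes of the circadian clock and its direct output were followed in RNA sequencing of mouse colonic crypts: Per1, Per2, Per3, Cry1, Cry2, Ciart, Nr1d1, Nr1d2, Dbp and Tef. They were chosen by symbol as a sign of the time of sampling, and all 10 were found among the 55471 genes of the deposited table and passed the filter on low counts, which left 14610 genes to test. Crypts were taken with EDTA from female C57BL/6 mice at 8 weeks of age, 3 mice a group and 1 library a mouse, in 4 groups that all carried floxed p53 alleles. CBPWTp53-floxed mice had wild-type CBP, a transcriptional coactivator encoded by Crebbp, and no Cre. CBPAAp53-floxed mice had no Cre either, and carried a knock-in that replaces a pair of phosphorylated serines of CBP with alanines in every cell. CBPWTp53ΔIEC and CBPAAp53ΔIEC mice also carried Villin-Cre, which deletes p53 in the epithelium of the whole intestine, with wild-type CBP or the alanine knock-in, respectively. The mice received no treatment that the labels name. They were kept under 12 h of light a day and sacrificed between 10 and 15 h clock time, and neither the hour for each mouse nor the hour at which the lights came on is given in the sources used here.

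The clock is a feedback loop of transcription. CLOCK or NPAS2 pairs with BMAL1 (gene symbol Bmal1, formerly Arntl) and switches on Per, Cry, Nr1d, Dbp, Tef and Ciart through E-boxes, PER and CRY proteins then block that pair, and REV-ERBs (the products of Nr1d1 and Nr1d2) compete with RORs at the Bmal1 promoter, so that Bmal1 runs in antiphase to Dbp and Nr1d1. In the gut, epithelial cells have their own clock, which follows meals as well as light, and levels of these mRNAs change several-fold over hours in unperturbed animals.

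RefSeq promoter windows of 300 bases (250 bases before and 50 after a start site, build GRCm38.p6) were found for 9 of the 10 genes, as 11 windows. They were searched on both strands for the E-box CACGTG, its variant CACGTT, the D-box TTATGTAA or TTACGTAA bound by DBP and TEF, the ROR element bound by RORs and REV-ERBs, and the cAMP response element TGACGTCA, and no match in the 11 windows overlapped another. The E-box was in 5 of the 11 windows (Ciart, Cry1, Per1 and both of Tef), against 7.15% of all 32851 windows. The variant was in 3 (Cry1, Cry2 and Nr1d1), against 4.68%, and the D-box in 1, that of Per3, against 1.06%. The ROR element and the cAMP response element were in none of the 11 windows, against 0.219% and 1.79% of all windows. The 250 bases before the start site are shown for the 3 genes with E-boxes that span the responses described below (Ciart and Tef, low in some libraries, and Cry1, which ran the other way) and for Per3 with its pair of D-boxes, read 5′ to 3′ on the strand of the gene with the E-boxes CACGTG and the D-boxes in capitals.
Ciart, chr3:95882229-95882478, minus strand: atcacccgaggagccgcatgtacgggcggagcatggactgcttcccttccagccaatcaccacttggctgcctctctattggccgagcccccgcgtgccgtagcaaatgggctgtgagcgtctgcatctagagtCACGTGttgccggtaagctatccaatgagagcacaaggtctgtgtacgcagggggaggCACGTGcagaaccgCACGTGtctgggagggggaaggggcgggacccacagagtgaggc
Tef, chr15:81802423-81802672, plus strand: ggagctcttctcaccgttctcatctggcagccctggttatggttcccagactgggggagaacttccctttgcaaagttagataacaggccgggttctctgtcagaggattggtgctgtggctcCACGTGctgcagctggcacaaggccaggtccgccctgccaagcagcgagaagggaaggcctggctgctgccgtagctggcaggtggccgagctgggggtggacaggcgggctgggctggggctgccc
Cry1, chr10:85185055-85185304, minus strand: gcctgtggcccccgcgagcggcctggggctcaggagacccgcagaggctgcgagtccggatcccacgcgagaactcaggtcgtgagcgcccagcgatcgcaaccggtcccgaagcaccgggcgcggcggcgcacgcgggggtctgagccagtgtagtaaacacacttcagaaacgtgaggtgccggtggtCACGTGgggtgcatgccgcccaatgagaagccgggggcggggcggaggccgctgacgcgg
Per3, chr4:151044666-151044915, minus strand: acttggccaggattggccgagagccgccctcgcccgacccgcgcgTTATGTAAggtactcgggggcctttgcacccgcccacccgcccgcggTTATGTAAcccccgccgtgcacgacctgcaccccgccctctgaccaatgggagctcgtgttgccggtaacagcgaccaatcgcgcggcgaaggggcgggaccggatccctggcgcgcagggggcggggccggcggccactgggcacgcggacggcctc
Ciart held E-boxes at 116, 58 and 44 bases before the start, Tef near the middle of its stretch and Cry1 at 60, and the variant of Cry1, left in lower case, began 79 bases before its start. The D-boxes of Per3 began 205 and 158 bases before it. A match of letters does not show that a factor was bound.

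Between 11177430 and 18029125 reads were counted on genes in each library. Trp53, the deleted gene, had 23.3 to 33.5 TPM (a level scaled to gene length and library size) in the 6 p53-floxed libraries and 3.26 to 6.13 TPM in the 6 p53ΔIEC libraries. Crebbp had 5.98 to 11.5 TPM, and does not check the knock-in, which leaves the transcript in place. The epithelial markers Epcam, Krt8, Krt20, Cdh1, Vil1 and Cdx2 summed to between 7088 and 10319 TPM in each library, while all 6 markers of fibroblasts and smooth muscle had at most 10 reads in every library. Small-intestine markers (Fabp6, Defa24, Lct, Apoa4 and Reg3b) summed to 18693 TPM in CBPWTp53ΔIEC replicate 1 and to 431 to 5712 TPM in the other 11, with Lct at most 10 reads in each. Defa24, a Paneth cell defensin, had 8290 TPM in that library, 1913 TPM in CBPAAp53ΔIEC replicate 3, 1079 TPM in CBPAAp53ΔIEC replicate 1 and 471 TPM in CBPAAp53-floxed replicate 2, against 0 TPM in CBPWTp53-floxed and at most 23.1 TPM in the rest. Fabp6, an ileal bile acid-binding protein, had 1629, 500, 453 and 217 TPM in the same 4 libraries, respectively, and at most 20.1 TPM elsewhere. The summed TPM of these markers in CBPWTp53-floxed was thus mostly Reg3b, at 1605, 563 and 425 TPM in replicates 1 to 3. In such bulk samples, fewer cells of a type and less RNA per cell cannot be told apart.

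The 3 Per genes, which encode the PER repressors, were lower in p53ΔIEC than in p53-floxed crypts, but not in every library. Per1 (ENSMUSG00000020893, chr11:69095217-69109960, 0.47 Mb from Trp53) had 23.6, 20.1 and 24.9 TPM in CBPWTp53-floxed replicates 1 to 3 and 27.6, 26.8 and 17.4 TPM in CBPAAp53-floxed replicates 1 to 3. It had 12.3, 3.74 and 8.74 TPM in CBPWTp53ΔIEC replicates 1 to 3 and 7.22, 10.5 and 21.7 TPM in CBPAAp53ΔIEC replicates 1 to 3. All CBPWTp53ΔIEC libraries lay below all CBPWTp53-floxed libraries, whereas CBPAAp53ΔIEC replicate 3 lay within the range of CBPAAp53-floxed. Per2 (ENSMUSG00000055866, chr1:91415982-91459324), the repressor that is needed with Per1 for a lasting rhythm, had 9.74, 9.83 and 10.8 TPM in CBPWTp53-floxed and 9.40, 7.07 and 6.77 TPM in CBPAAp53-floxed crypts. In p53ΔIEC crypts it had 3.73, 4.39 and 5.57 TPM with wild-type CBP and 4.34, 4.63 and 7.60 TPM with CBPAA. For Per2, CBPWTp53ΔIEC replicate 1 was the lowest of the 12 libraries in TPM, which held for no other of the 10 genes. On the normalized counts used for the tests, CBPAAp53ΔIEC replicates 1 and 2 and CBPWTp53ΔIEC replicate 2 were lower. Per3 (ENSMUSG00000028957, chr4:151003652-151044665), which lies within Camta1 on the same strand, had 8.10, 9.58 and 12.5 TPM in CBPWTp53-floxed and 13.2, 9.47 and 7.42 TPM in CBPAAp53-floxed crypts. In CBPWTp53ΔIEC crypts it had 3.94, 2.92 and 2.50 TPM, and in CBPAAp53ΔIEC crypts 3.44, 4.47 and 9.76 TPM. Again only CBPAAp53ΔIEC replicate 3 among the p53ΔIEC libraries reached the floxed range.

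The Cry genes encode the partners of the PER proteins, and they went in opposite directions. Cry1 (ENSMUSG00000020038, chr10:85131700-85185064) had 7.31, 8.82 and 6.68 TPM in CBPWTp53-floxed and 7.58, 4.74 and 5.67 TPM in CBPAAp53-floxed crypts. In p53ΔIEC crypts it had 6.89, 13.5 and 16.9 TPM with wild-type CBP and 9.06, 9.57 and 7.96 TPM with CBPAA. It was the one gene of the 10 with a mean that was higher in both p53ΔIEC groups than in their floxed controls. Cry2 (ENSMUSG00000068742, chr2:92403646-92434043) had 16.6, 16.1 and 15.9 TPM in CBPWTp53-floxed and 15.8, 17.3 and 11.6 TPM in CBPAAp53-floxed crypts. It had 9.95, 6.32 and 10.2 TPM in CBPWTp53ΔIEC and 8.69, 6.70 and 15.7 TPM in CBPAAp53ΔIEC crypts. Within each library the ratio of Per2 TPM to Cry1 TPM was 1.11 to 1.61 in the 6 floxed libraries and 0.327 to 0.956 in the 6 p53ΔIEC libraries, with CBPAAp53ΔIEC replicate 3 the highest of the latter.

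Ciart, Dbp and Tef had the largest ratios of the highest to the lowest TPM over the 12 libraries (152, 20.2 and 8.13, respectively). Ciart (ENSMUSG00000038550, chr3:95878503-95882251), which encodes the CHRONO repressor of the BMAL1 complex, had 4.04, 5.20 and 5.43 TPM in CBPWTp53-floxed and 7.29, 11.2 and 5.56 TPM in CBPAAp53-floxed crypts. It had 3.42, 0.0739 and 0.777 TPM in CBPWTp53ΔIEC crypts, which were 39, 1 and 9 reads, and 0.985, 0.681 and 4.59 TPM in CBPAAp53ΔIEC crypts, which were 12, 8 and 59 reads. Thus 4 p53ΔIEC libraries held at most 12 reads of Ciart, while the other 8 libraries held 39 to 191. Dbp (ENSMUSG00000059824, chr7:45705088-45710203), a PAR bZIP transcription factor that carries the rhythm to D-box genes, had 16.7, 17.9 and 20.5 TPM in CBPWTp53-floxed and 27.1, 34.9 and 20.5 TPM in CBPAAp53-floxed crypts. In p53ΔIEC crypts it had 10.4, 1.73 and 2.28 TPM with wild-type CBP and 3.35, 4.18 and 15.6 TPM with CBPAA. Every p53ΔIEC library was below every floxed library for Dbp, and the same 4 libraries were far below the others. Its neighbour Sphk2, which overlaps it on the other strand, had 53.7 to 79.0 TPM in all libraries and did not follow this pattern. Tef (ENSMUSG00000022389, chr15:81802421-81826863), of the same family as Dbp, had 29.7, 33.3 and 37.4 TPM in CBPWTp53-floxed and 39.3, 37.0 and 28.8 TPM in CBPAAp53-floxed crypts. It had 19.6, 4.84 and 5.68 TPM in CBPWTp53ΔIEC and 8.38, 7.00 and 37.6 TPM in CBPAAp53ΔIEC crypts. Ciart and Tef are each overlapped by an annotated antisense gene, and whether strand was used in counting is not given in the sources used here.

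The REV-ERB genes were the most abundant of the 10, with means over the 12 libraries of 81.1 TPM for Nr1d1 and 39.3 TPM for Nr1d2. Nr1d1 (ENSMUSG00000020889, chr11:98767932-98775333) had 81.6, 90.0 and 104 TPM in CBPWTp53-floxed and 116, 108 and 84.1 TPM in CBPAAp53-floxed crypts. In CBPWTp53ΔIEC crypts it had 107, 28.1 and 53 TPM, and in CBPAAp53ΔIEC crypts 54.5, 46.8 and 99.1 TPM. Replicate 1 of the former and replicate 3 of the latter thus lay at the level of the floxed libraries. Thra, which overlaps Nr1d1 on the other strand, had 25.5 to 30.9 TPM throughout. Nr1d2 (ENSMUSG00000021775, chr14:18204054-18239127) had 45.1, 51.2 and 58.8 TPM in CBPWTp53-floxed and 57.5, 41.9 and 49.6 TPM in CBPAAp53-floxed crypts. It had 30.2, 17.2 and 19.2 TPM in CBPWTp53ΔIEC and 24.4, 25.5 and 50.5 TPM in CBPAAp53ΔIEC crypts.

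**Figure D1:**
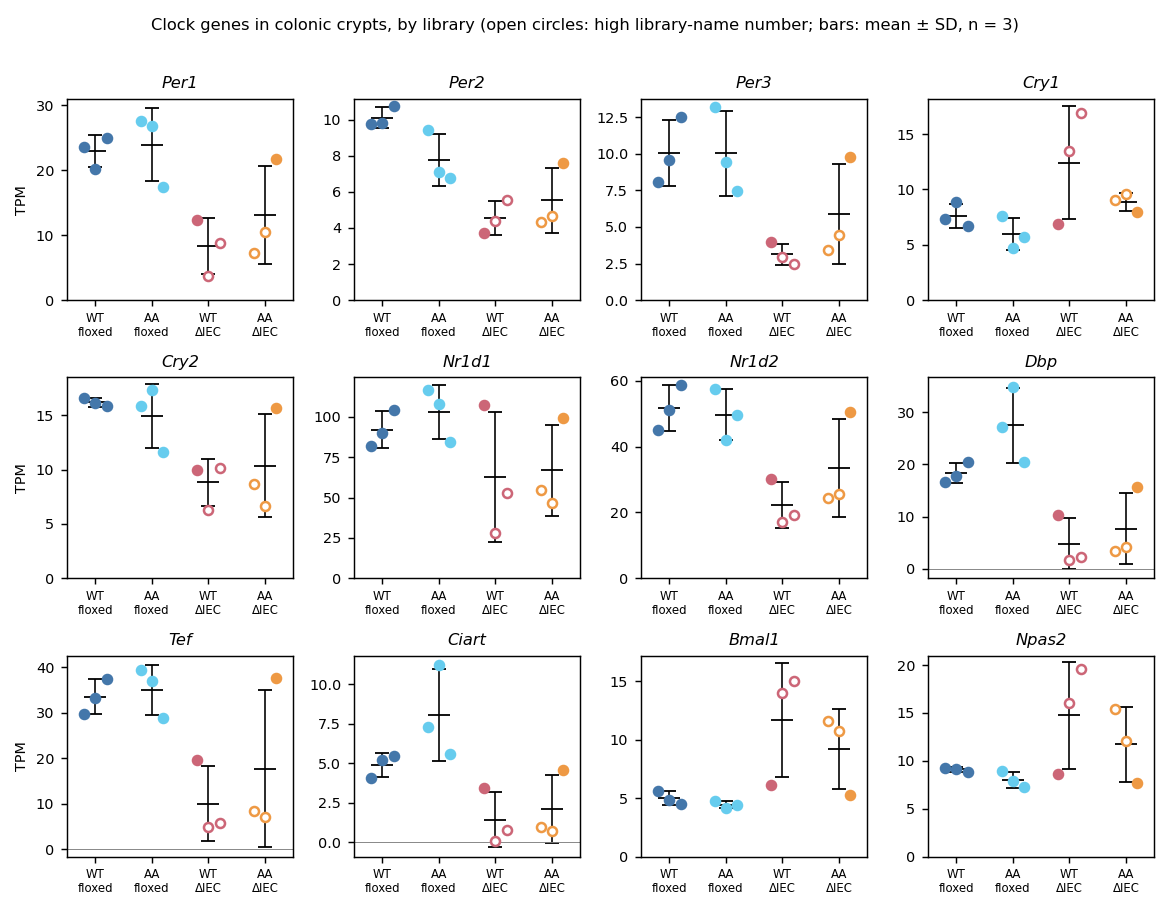
TPM (vertical axes, linear) of the 10 clock genes and of Bmal1 and Npas2 in each library of the 4 groups (WT floxed, CBPWTp53-floxed; AA floxed, CBPAAp53-floxed; WT ΔIEC, CBPWTp53ΔIEC; AA ΔIEC, CBPAAp53ΔIEC), with bars for the mean ± SD of 3 mice. Open circles mark the 4 libraries with the highest numbers in their names, in which Dbp lay at 1.73 to 4.18 TPM, against 10.4 to 34.9 TPM in the filled circles.

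The positive arm ran the other way. Bmal1 had 5.64, 4.85 and 4.48 TPM in CBPWTp53-floxed and 4.73, 4.20 and 4.44 TPM in CBPAAp53-floxed crypts. In p53ΔIEC crypts it had 6.09, 14.0 and 15 TPM with wild-type CBP and 11.6, 10.8 and 5.31 TPM with CBPAA. Its values were thus above 10 TPM in the 4 libraries with little Ciart, and at most 6.09 TPM in the others. Npas2, the partner of BMAL1 that can stand in for CLOCK, had 12.1 to 19.6 TPM in those 4 libraries and 7.22 to 9.29 TPM in the other 8. Clock itself had 20.7 to 25.7 TPM in the 4 libraries, within the 10.8 to 26.0 TPM of the rest. The ratio of Dbp TPM to Bmal1 TPM within a library was 2.96 to 8.31 in the floxed libraries, 1.71 in CBPWTp53ΔIEC replicate 1, 2.95 in CBPAAp53ΔIEC replicate 3 and 0.123 to 0.387 in the 4 libraries.

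These 4 libraries, CBPWTp53ΔIEC replicates 2 and 3 and CBPAAp53ΔIEC replicates 1 and 2, are also those whose library names carry the highest numbers, set off from the numbers of the other 8 by the widest gap among them. What the numbers stand for is not given in the sources used here, and the coincidence was seen only after the values. No floxed library carries one of these high numbers, so that in CBPWTp53ΔIEC replicates 2 and 3 and CBPAAp53ΔIEC replicates 1 and 2 the number and p53 deletion cannot be told apart. The CPM (counts scaled to library size after TMM normalization) of the 4 libraries did not overlap with those of the other 8 for 8 of the 10 genes, all of them lower (Per1, Per3, Cry2, Ciart, Nr1d1, Nr1d2, Dbp and Tef), against 14.9% of all genes tested without overlap and 6.46% without overlap and lower. In TPM it was 7 of the 10, against 16.3% of all genes, as Per3 and Cry2 then overlapped and Cry1 then did not. The split was recognised with these genes in view, so that these counts are a description without a test. The remaining p53ΔIEC libraries, CBPWTp53ΔIEC replicate 1 and CBPAAp53ΔIEC replicate 3, came from the same genotypes as the 4. Both held small-intestine genes, as did CBPAAp53ΔIEC replicate 1 among the 4 and CBPAAp53-floxed replicate 2, and their part in the clock gene values was not tested.

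**Figure D2:**
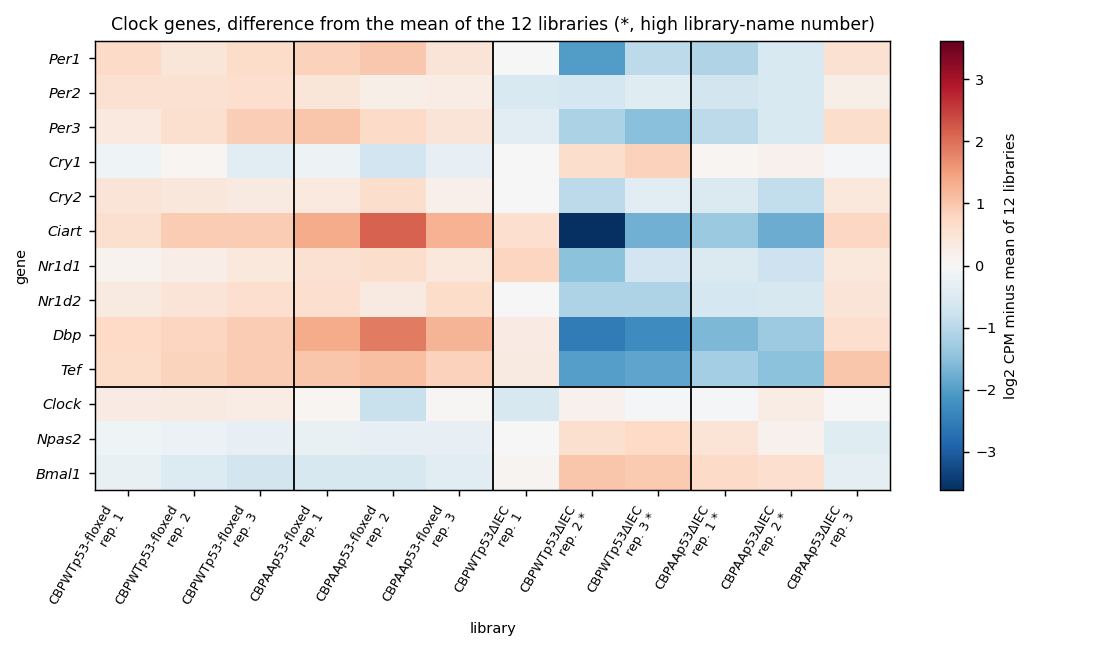
Log2 CPM of each clock gene (rows; the 10 genes above the horizontal line, genes of the positive arm below it) in each library (columns, with group and replicate, and an asterisk for a high library-name number), as the difference from the mean of the 12 libraries, on a colour scale. The 4 libraries with an asterisk are blue for Ciart, Dbp and Tef and red for Bmal1, while the other p53ΔIEC libraries lie nearer to the floxed ones.

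**Figure D3:**
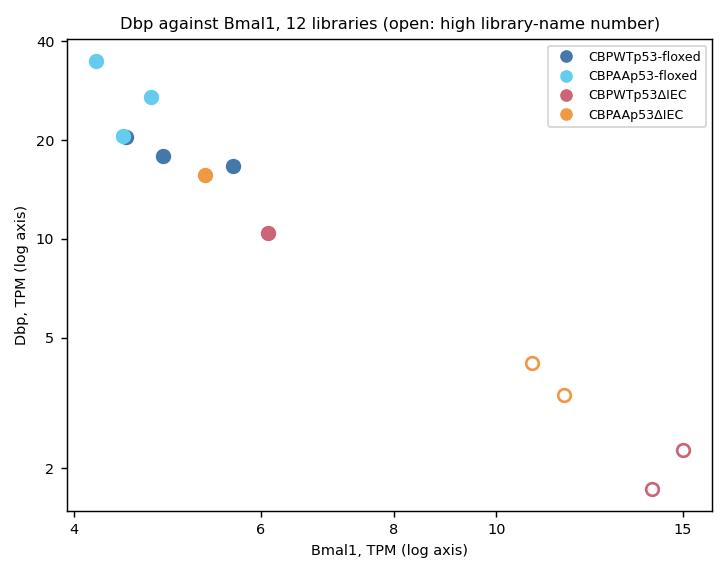
TPM of Dbp (vertical, log axis) against TPM of Bmal1 (horizontal, log axis) in the 12 libraries, coloured by group and open for high library-name numbers. The 4 open points lie at 10.8 to 15 TPM of Bmal1 and 1.73 to 4.18 TPM of Dbp, apart from the 8 filled points at 4.20 to 6.09 TPM of Bmal1.

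To ask whether p53 deletion changed the clock genes, CBPWTp53ΔIEC was compared with CBPWTp53-floxed with edgeR's quasi-likelihood test, in which a gene was called if its adjusted p lay below 0.05 and its log2 fold change exceeded 0.5 in either direction. Per2 fell by 1.12 on the log2 scale (SE 0.19, adjusted p = 0.0234 from edgeR), from 10.1 ± 0.569 to 4.56 ± 0.932 TPM (SD, n = 3), and was the one gene of the 10 past the cutoff. At the same cutoff, 3.15% of all genes tested were called, 0.856% as lower and 2.29% as higher. Beside Per2, Per3 had a log2 fold change of -1.61 (SE 0.40, adjusted p = 0.0547 from edgeR). Bmal1 rose by 1.22 on the log2 scale (SE 0.27, adjusted p = 0.0370 from edgeR), as did Timeless, which acts at replication forks in mammals, by 1.41 (SE 0.28, adjusted p = 0.0286 from edgeR). Trp53 fell by 2.64 (SE 0.22, adjusted p = 0.000375 from edgeR).

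The other 8 genes were not called in this comparison, and 7 of them had a negative log2 fold change. It was -1.80 for Dbp (SE 0.80), -1.68 for Ciart (SE 0.94), -1.58 for Tef (SE 0.79), -1.38 for Per1 (SE 0.51) and -1.13 for Nr1d2 (SE 0.35). Cry2 had -0.82 (SE 0.30) and Nr1d1 -0.42 (SE 0.50), while Cry1 had 0.70 (SE 0.21). Dbp, Ciart and Tef had the largest SEs of the 10, and for each of them replicate 1 lay well above replicates 2 and 3. The median over the 10 genes was -1.25, against 0.0098 over all genes tested, and 7 of the 10 did not overlap between the groups in CPM, against 30.8% of all genes. In TPM it was 8, with Ciart added, against 21.4%. Npas2 had a log2 fold change of 0.69 (SE 0.21, adjusted p = 0.0908 from edgeR) and Clock of -0.43 (SE 0.22, adjusted p = 0.289 from edgeR).

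The calls depended on single libraries. Without CBPWTp53ΔIEC replicate 1, the library with the most small-intestine RNA, 6 of the 10 genes were called (Per2, Per3, Cry1, Ciart, Nr1d2 and Dbp), among 6.06% of all genes, and the log2 fold change of Dbp was -3.29. Without CBPAAp53ΔIEC replicate 3, which is in neither group but adds to the shared spread, 4 were called, among 4.93% of all genes, and without CBPWTp53ΔIEC replicate 2 or 3, or CBPWTp53-floxed replicate 1, 2 or 3, none was. Calls were then lost over all genes, with 0.0470%, 0.0269%, 0.0469%, 0.0134% and 0.00671% called, respectively. DESeq2 called 4 (Per2, Per3, Cry1 and Nr1d2), among 5.96% of all genes, and edgeR on these groups alone called Per2 and Per3, among 5.11%, as it did with at least 10 counts in every library, among 3.64%. With the replicate number as a block, Per2 was called among 0.219% of all genes.

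In CBPAAp53ΔIEC vs. CBPAAp53-floxed, the same contrast on the knock-in background, none of the 10 genes was called by edgeR or by DESeq2, whereas 4 (Per2, Per3, Ciart and Dbp) had an unadjusted p under 0.05. Among all genes, edgeR called 0.0274% and DESeq2 0.513%, and 12.6% had an unadjusted p under 0.05. Ciart had a log2 fold change of -2.05 (SE 0.88, adjusted p = 0.389 from edgeR), Dbp of -1.94 (SE 0.78, adjusted p = 0.377 from edgeR) and Per2 of -0.60 (SE 0.19, adjusted p = 0.320 from edgeR). Tef had -1.09 (SE 0.78), Per1 -0.97 (SE 0.50), Per3 -0.86 (SE 0.39), Nr1d1 -0.74 (SE 0.50), Nr1d2 -0.69 (SE 0.35) and Cry2 -0.64 (SE 0.30), and Cry1 had 0.44 (SE 0.21). The median over the 10 genes was -0.80, against 0.015 over all genes, and in CPM, Per2, Ciart and Dbp were lower without overlap between the groups, against 7.18% of all genes, and Cry1 was higher without overlap, against 7.86%. In TPM, Per2 overlapped. Bmal1 had a log2 fold change of 0.91 (SE 0.28, adjusted p = 0.320 from edgeR), Npas2 of 0.41 (SE 0.22), Clock of 0.27 (SE 0.22) and Timeless of 0.46 (SE 0.27), and Trp53 fell by 2.58 (SE 0.22, adjusted p = 0.000401 from edgeR). Without CBPAAp53ΔIEC replicate 3, Per2, Per3, Cry2 and Bmal1 passed the cutoff, among 2.19% of all genes, with a log2 fold change of -0.93 for Per2 and 1.17 for Bmal1.

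Fits of p53 deletion that took the high library-name numbers into account are given as a description, without p or calls. The 4 libraries were recognised by low values of these genes, so that smaller effects of p53 deletion follow from the choice. With the class of the number (high, or not) as a term beside the group, the median over the 10 genes was -0.47 in CBPWTp53ΔIEC vs. CBPWTp53-floxed and -0.18 in CBPAAp53ΔIEC vs. CBPAAp53-floxed. In the former, Per2 was at -0.82 (SE 0.19), Dbp at -0.70 (SE 0.22) and Bmal1 at 0.54 (SE 0.14). In the latter, Dbp was at -0.74 (SE 0.22) and Tef at -0.0044 (SE 0.12). Without the 4 libraries, which leaves replicate 1 alone in CBPWTp53ΔIEC and replicate 3 alone in CBPAAp53ΔIEC, the medians were -0.48 and -0.11, and Per2 was at -1.14 (SE 0.18) with wild-type CBP. Both of these single libraries held small-intestine genes, whose part in the values was not tested.

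**Figure D4:**
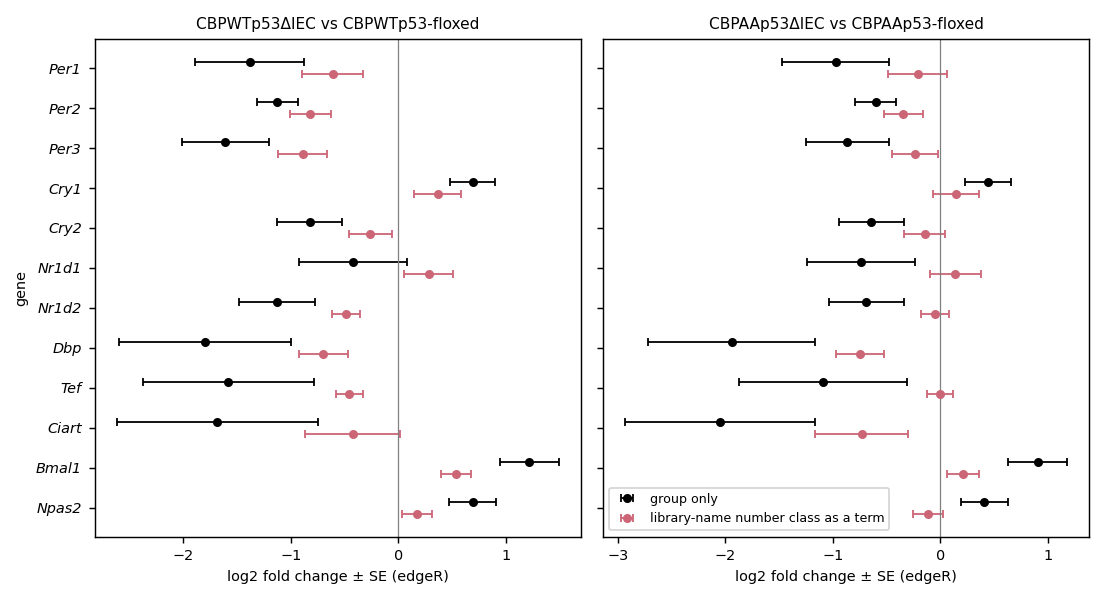
Log2 fold change ± SE (horizontal axes) of the 10 clock genes, Bmal1 and Npas2 for p53 deletion with wild-type CBP (left) and with CBPAA (right), from edgeR with the group alone (black) and with the class of the library-name number as a term (red). The median of the 10 genes was -1.25 (black) and -0.47 (red) on the left and -0.80 and -0.18 on the right; the class was recognised by these values, so that the red points are a description.

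Whether the CBP knock-in changed the clock genes was asked in both p53 states. In CBPAAp53-floxed vs. CBPWTp53-floxed, no library carried one of the high numbers. Every library-name number of CBPWTp53-floxed was nonetheless above every one of CBPAAp53-floxed. The number and the CBP genotype thus cannot be told apart in this comparison, and the part of the number was not tested. None of the 10 genes was called by edgeR or DESeq2, and none had an unadjusted p under 0.05. Among all genes edgeR called 0% and DESeq2 0.233%, and 8.04% had an unadjusted p under 0.05. Ciart had the largest value, a log2 fold change of 0.84 (SE 0.83, adjusted p = 0.773 from edgeR), with 8.03 ± 2.92 against 4.89 ± 0.748 TPM (SD, n = 3). Dbp had 0.71 (SE 0.74, adjusted p = 0.788 from edgeR), with 27.5 ± 7.18 against 18.3 ± 1.93 TPM (SD, n = 3), and Per2 had -0.27 (SE 0.19, adjusted p = 0.681 from edgeR). Per2, Ciart, Nr1d1 and Dbp did not overlap between these groups in CPM, 4 of 10 genes against 19.4% of all genes, while Nr1d1 overlapped in TPM. Clock had a log2 fold change of -0.48 (SE 0.22, adjusted p = 0.618 from edgeR).

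In CBPAAp53ΔIEC vs. CBPWTp53ΔIEC, none of the 10 genes was called by edgeR or DESeq2, 1 (Cry1) had an unadjusted p under 0.05, and none was without overlap, against 0.00684% called by edgeR, 0.0137% called by DESeq2, 3.57% at an unadjusted p under 0.05 and 9.26% without overlap among all genes. Per3 had a log2 fold change of 0.85 (SE 0.40) and Cry1 of -0.49 (SE 0.21), both with an adjusted p = 0.985 from edgeR. None of the clock genes was called among the 4 libraries with high numbers alone, where 0.0140% of all genes were, but Ciart was not tested there. This fit set CBPAAp53ΔIEC replicates 1 and 2 against CBPWTp53ΔIEC replicates 2 and 3, which were recognised by low values of these genes. Its log2 fold changes ran from -0.63 (Cry1) to 0.98 (Dbp), and so few libraries cannot decide whether the CBP genotype mattered. The interaction term, which asks whether the p53 effect differed between CBP genotypes, was called for none of the 10 genes, none had an unadjusted p under 0.05, and DESeq2 called none; among all genes edgeR called 0.00684% and DESeq2 0.205%, and 10.3% had an unadjusted p under 0.05. Its smallest p among the 10 was for Per2, with a log2 difference of 0.53 (SE 0.27, adjusted p = 0.513 from edgeR). The comparisons that involve the same group share its libraries and are not independent of one another.

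Other lists around the clock were read in the same fits. Of the 7 tested genes of the positive arm and stabilising loop, Bmal1 alone was called in CBPWTp53ΔIEC vs. CBPWTp53-floxed, and none was called in CBPAAp53ΔIEC vs. CBPAAp53-floxed. Nfil3, the repressor that competes with DBP at D-boxes, had 13.4 to 22.4 TPM in the 4 libraries with high numbers and 7.69 to 11.5 TPM in the other 8. In CPM, the ranges of Nfil3 overlapped. Of 7 tested modulators (kinases, ubiquitin ligases and others), Timeless alone was called, in CBPWTp53ΔIEC vs. CBPWTp53-floxed. Of 6 clock-controlled output genes of many tissues (Usp2, Wee1, Nampt, Por, Lonrf3 and Coq10b), none was called in any comparison, with the smallest unadjusted p in CBPWTp53ΔIEC vs. CBPWTp53-floxed for Coq10b (log2 fold change -0.35, SE 0.12, adjusted p = 0.118 from edgeR).

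Glucocorticoids peak once a day and induce Per1, so that 6 of their target genes (Fkbp5, Tsc22d3, Zbtb16, Sgk1, Klf9 and Per1) were read, and none was called in any comparison. All 6 had a negative log2 fold change in CBPWTp53ΔIEC vs. CBPWTp53-floxed, with a median of -0.37 and the smallest unadjusted p for Klf9 (log2 fold change -0.38, SE 0.13, adjusted p = 0.123 from edgeR). Fkbp5, which encodes a chaperone of the glucocorticoid receptor, had 35.3 to 46.2 TPM in the 4 libraries against 39.5 to 63.4 TPM in the other 8. Of the 6, Fkbp5 and Per1 alone did not overlap in CPM, against 14.9% of all genes tested. None of 8 immediate early genes was called in any comparison, and the smallest unadjusted p was that of Dusp1 in CBPAAp53ΔIEC vs. CBPAAp53-floxed (log2 fold change -0.80, SE 0.22, adjusted p = 0.320 from edgeR). Their median was -0.064 in CBPWTp53ΔIEC vs. CBPWTp53-floxed, with 5 of 8 below 0. It was -0.32 in CBPAAp53ΔIEC vs. CBPAAp53-floxed, with all 8 below 0 and 3 at an unadjusted p under 0.05, and 0.33 in CBPAAp53-floxed vs. CBPWTp53-floxed, with all 8 above 0 and 1 at an unadjusted p under 0.05. Fos, which responds within minutes to handling or stimulation, lay in the 4 libraries within the 91.9 to 247 TPM of the rest. Jun had 82.1 to 105 TPM in the 4 libraries and 88.2 to 134 TPM in the other 8. Of the 8 immediate early genes, Jun alone did not overlap in CPM, against 14.9% of all genes tested.

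Body temperature has a daily rhythm, and 6 genes that respond to it were read. All but Dnajb1 lay without overlap between the 4 libraries and the other 8. This compares with 14.9% of all genes tested in CPM and 16.3% in TPM. It is a description, as the split and these genes were chosen with values in view. Cirbp and Rbm3, RNA-binding proteins that rise in the cold, had 42.6 to 54.9 and 62.3 to 79.4 TPM in the 4 libraries, and 74.0 to 136 and 96.4 to 116 TPM in the other 8. The heat shock genes Hspa1a, Hspa1b and Hsph1 had 3.32 to 10.7, 10.1 to 30.8 and 8.94 to 11.7 TPM in the 4 libraries. In the other 8 they had 0.890 to 1.87, 3.79 to 6.36 and 4.10 to 7.38 TPM, whereas Dnajb1 overlapped. None of the 6 was called in any comparison of groups; in CBPAAp53ΔIEC vs. CBPAAp53-floxed, Hspa1b had the smallest unadjusted p, with a log2 fold change of 1.81 (SE 0.50, adjusted p = 0.320 from edgeR). Mki67, a marker of dividing cells read only after the values were seen, had 75.7 to 107 TPM in the 4 libraries and 12.9 to 31.2 TPM in the other 8. Temperature, stress, the share of dividing crypt cells, the hour of sampling and whatever the library-name numbers stand for were not separated here, and their part in the clock gene values was not tested.

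**Figure D5:**
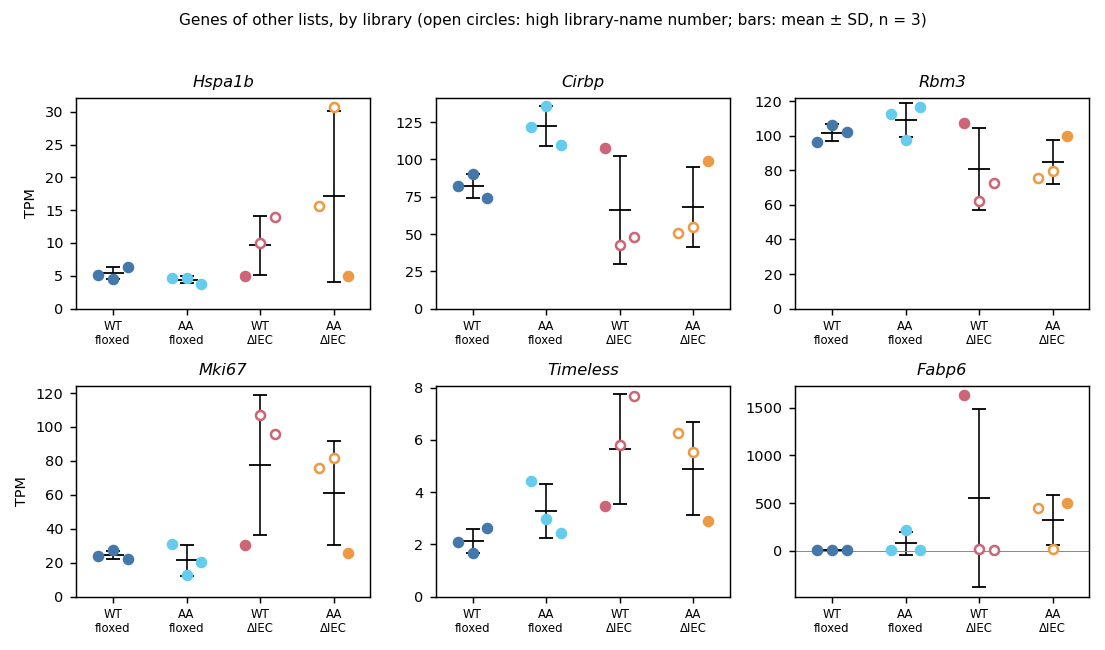
TPM (vertical axes, linear) by library of Hspa1b, Cirbp, Rbm3, Mki67, Timeless and Fabp6 in the 4 groups, with bars for the mean ± SD of 3 mice and open circles for high library-name numbers. Mki67 lies at 75.7 to 107 TPM in the open circles and at 12.9 to 31.2 TPM in the filled ones, whereas Fabp6, a small-intestine gene, is highest in CBPWTp53ΔIEC replicate 1.

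Apart from Cry1, the 10 genes had like patterns over the 12 libraries, as described by Pearson's r with Dbp on log2 CPM. It was 0.98 for Tef, 0.97 for Ciart, 0.96 for Per1 and Nr1d2, 0.94 for Per3, 0.92 for Cry2 and Nr1d1, and 0.81 for Per2. Cry1 had an r of -0.89, as against -0.97 for Bmal1, -0.94 for Npas2 and -0.24 for Clock. Of all other genes tested, Eci2, Mt2, Vipas39, Nop53 and Gas6 had the highest r with Dbp (0.98, 0.97, 0.97, 0.97 and 0.96, respectively), and Kpna2, Cdc7, Depdc1a, Ect2 and Anp32e the lowest (-0.98, -0.98, -0.97, -0.97 and -0.97). Mt2, a metallothionein, had 366 to 522 TPM in the 4 libraries with high numbers and 964 to 1746 TPM in the other 8, and Ect2, an exchange factor for cytokinesis, had 14.0 to 16.5 and 2.25 to 4.97 TPM. These r values rest mainly on the gap between the 4 and the 8 libraries and are given without a p.

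Because the libraries fell into separate clusters, the relation to Bmal1 was described only within the 8 libraries without high numbers. These were set apart with the clock genes in view and pool 4 groups, so that Pearson's r and Spearman's rho are given without a p. Per3 had an r of -0.95 and a rho of -0.86, and r was -0.80 without the 2 libraries farthest from the median of Bmal1, CBPWTp53ΔIEC replicate 1 and CBPWTp53-floxed replicate 3. The other 9 genes had an r between -0.87 (Tef) and 0.52 (Cry1). Dbp had an r of -0.68 and a rho of -0.79, with r at -0.71 without those 2 libraries. On log2 TPM plus 0.1 in place of log2 CPM, r was -0.65 for Per3, -0.85 for Ciart and -0.87 for Dbp, so that the order of the genes depended on the scale.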

How the data were processed

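RNA of colonic crypts was sequenced in 12 libraries, 1 per mouse, with 3 in each of 4 groups taken from the labels. The authors deposited raw read counts per gene and library and TPM per gene and library, which summed to 1000000 in each. Per the labels, libraries were made with a stranded mRNA kit, and the submitters' processing notes name fastp 0.20.0, FastQC 0.11.9, HISAT2 2.1.0, SAMtools 1.9, featureCounts of Subread 2.0.1 and GRCm38. Columns with fold changes and p-values of 5 comparisons of the authors were not used.

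The main test was the robust quasi-likelihood F-test of edgeR 4.0.16 (R 4.3.3), fitted to the 4 groups over all 12 libraries after TMM normalization and a filterByExpr step at 10 counts, with Benjamini-Hochberg adjustment over 14610 genes. A gene was called if its adjusted p lay below 0.05 and its log2 fold change exceeded 0.5 in either direction. SEs came from the F statistic. The total counts of 11177430 to 18029125 per library set the precision of low genes such as Ciart. The fit was tested on simulated data. DESeq2 1.42.0, other normalization and filters, the replicate number as a block and each library left out were alternatives. The settings on library-name numbers and the restriction of correlations to 8 libraries, in place of the planned 12, were added after seeing the data, because the libraries formed separate clusters. Correlations are given without a p, since the 8 were set apart with these genes in view, and used a TPM pseudocount of 0.1 in 1 alternative.

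Members and lists were chosen with earlier results of these data known. Named were the 10 members, Bmal1, Clock and Npas2, list genes past the cutoff or else the lowest p of a list, the 5 highest and 5 lowest correlations with Dbp, and Trp53 and Crebbp. Genes given beside these (Nfil3, Fkbp5, Fos, Jun, Cirbp, Rbm3, Hspa1a, Hsph1, Dnajb1 and Mki67) were chosen after their values were seen. One gene of a list is not reported here. Arntl was matched to Bmal1 by its Ensembl ID. Positions are from GENCODE on GRCm38 and promoters from RefSeq. Mice of a group were separate animals. The p-values of edgeR set a difference between groups against the spread between mice, estimated over all 4 groups.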

Additional observations from a re-analysis of the deposited data

How the results depend on the processing

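The counts of clock genes past the cutoff were 0 of 10 in CBPAAp53-floxed vs. CBPWTp53-floxed, CBPAAp53ΔIEC vs. CBPWTp53ΔIEC and the interaction. This held under every alternative run that did not use the library-name numbers. In CBPWTp53ΔIEC vs. CBPWTp53-floxed the count of 1 became 4 with DESeq2, among 5.96% of all genes. It became 2 with at least 10 counts in every library (9 clock genes left, without Ciart), among 3.64%. It was 2 with edgeR on those groups alone, among 5.11%, and 0 to 6 with 1 library left out, among 0.00671% to 6.06%. In CBPAAp53ΔIEC vs. CBPAAp53-floxed the count of 0 became 3 without CBPAAp53ΔIEC replicate 3, among 2.19% of all genes, and was 0 without any other library. Samples with the same replicate number did not in general deviate together (correlations of deviations between -0.526 and 0.548, 3 of 18 above 0.1). Whether the mice were paired was not tested further. With the replicate number as a block, 1 clock gene was called in CBPWTp53ΔIEC vs. CBPWTp53-floxed, among 0.219% of all genes. In the other comparisons 0 were called, among at most 2 of 14610 genes, and Bmal1 (1.22) and Timeless (1.42) were no longer called in CBPWTp53ΔIEC vs. CBPWTp53-floxed.

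With the library-name number as a term, log2 fold changes turned to 0.28 for Nr1d1 in CBPWTp53ΔIEC vs. CBPWTp53-floxed, and to 0.14 for Nr1d1, -0.11 for Npas2 and -0.11 for Timeless in CBPAAp53ΔIEC vs. CBPAAp53-floxed. Without the 4 libraries they turned to 0.52 for Nr1d1 in the former, and to 0.016 for Tef, -0.15 for Npas2 and -0.26 for Timeless in the latter. The cause was not tested.

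Within the 8 libraries, r with Bmal1 turned to 0.13 for Per2 and -0.75 for Nr1d1, and was -0.80 for Per3, without the 2 libraries farthest from the median. On log2 TPM plus 0.1 it was -0.14 for Nr1d1, -0.65 for Per3, -0.85 for Ciart and -0.87 for Dbp. With 1 library left out, r ranged from -0.97 to -0.84 for Per3, from -0.94 to -0.57 for Tef and from -0.61 to 0.53 for Nr1d1. The planned correlation over 12 libraries, and its version on deviations from group means, were not run as results, because the libraries formed separate clusters. At 1 to 12 reads in 4 libraries, depth limits Ciart.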
